A study of Homo sapiens with 9 samples.

Results

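The aryl hydrocarbon receptor gene *AHR* and 4 of its known targets, *AHRR*, *TIPARP*, *CYP1A1* and *CYP1B1*, were followed by RNA sequencing in 786-O cells depleted of ARNT or of BMAL1. These 5 genes were chosen by name out of 38021 genes in the table, because AHR is another partner of ARNT. 786-O is an established human clear cell renal carcinoma line without functional VHL, in which HIF2α builds up. The cells carried a pLKO.1 lentivirus that expressed a control shRNA (*shControl*, labelled WT), an shRNA against *ARNT* (*shARNT*, labelled ARNT knockdown) or an shRNA against *BMAL1* (*shBMAL1*, labelled BMAL1 knockdown). All groups, the control included, were infected and selected in puromycin. There were 9 libraries, 3 biological replicates per group by their labels. Each gene was targeted by a single shRNA here, so an effect of that sequence on other transcripts cannot be told apart from an effect of the depletion. Whether the selected cells were a clone or a pool was not given in the sources used here.

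AHR is a ligand-activated transcription factor of the bHLH-PAS family. It waits in the cytoplasm with chaperones such as HSP90 and p23, moves to the nucleus when it binds a planar aromatic ligand or a tryptophan metabolite, pairs with ARNT there, and binds DNA at sites with the core GCGTG. *CYP1A1* and *CYP1B1* encode P450 enzymes that oxidise such ligands. *AHRR* encodes a repressor that competes with AHR for ARNT, and *TIPARP* encodes a mono-ADP-ribosyltransferase that modifies AHR and lowers its activity, so these targets close feedback loops. BMAL1 is, like ARNT, a bHLH-PAS partner subunit, and with CLOCK it binds E-boxes of the sequence CACGTG.

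On GRCh37, *AHR* (ENSG00000106546) lies at chr7:17338276-17385771 on the plus strand and has 11 exons in its canonical transcript. *AHRR* (ENSG00000063438) lies at chr5:321829-438400, plus strand, with 11 exons. *TIPARP* (ENSG00000163659) lies at chr3:156392379-156424559, plus strand, with 6 exons. *CYP1A1* (ENSG00000140465) lies at chr15:75011883-75017869, minus strand, with 7 exons. *CYP1B1* (ENSG00000138061) lies at chr2:38294652-38303293, minus strand, with 3 exons. All are protein-coding.

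Short windows at start sites were searched for ARNT-type and BMAL1-type motifs, and sites outside these windows were not searched. RefSeq start sites on GRCh38.p14 gave 7 windows for 4 of the 5 genes, each 300 bases long, from 250 before to 50 after the start. *CYP1B1* had no window. The AHR-ARNT core GCGTG was searched on both strands, as were the core ACGTG shared by HIF sites and E-boxes and the full E-box CACGTG, which contains that second core. The stretches below are 30 bases each, 5′ to 3′ on the gene's strand, with the motif in capitals. CACGC is GCGTG read on the other strand.
*AHR*, E-box at position -165 from the start (chr7:17298475-17298504, plus strand): gtcctacgtcatCACGTGccgggatgaggg
*AHRR*, first start, GCGTG at -30 (chr5:321672-321701, plus strand): ggcgggcggctcGCGTGccggggtggggca
*AHRR*, second start, GCGTG at -42 (chr5:322556-322585, plus strand): gcagaagggtggGCGTGtgcgcgcgttctc
*TIPARP*, first start, GCGTG on the other strand at -208 (chr3:156674370-156674399, plus strand): cgcgagaaaggaCACGCcccctcgcgggag
*TIPARP*, first start, GCGTG on the other strand at -142 (chr3:156674436-156674465, plus strand): cgaacgaacgcgCACGCgcgcgcagggggc
*CYP1A1*, GCGTG at -57 (chr15:74725568-74725597, minus strand): ccagggaaggagGCGTGgccacacgtacaa
The second *AHRR* window held a further GCGTG at -247, the *AHR* window held a GCGTG at 38 bases after the start, and the *CYP1A1* window held ACGTG on the other strand at -48. The windows at the other 2 *TIPARP* starts held none of these motifs. Of 35116 RefSeq windows of the same length, 36.5% held GCGTG, 21.4% held ACGTG and 7.26% held CACGTG on either strand. These matches are letters in a window, and binding was not measured here.

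The libraries held 33793043 to 35444731 reads and 20068 to 20778 genes with a read. *ARNT* fell from 2352 ± 184 normalised read counts in *shControl* to 1225 ± 23.2 in *shARNT*, and *BMAL1* (*ARNTL* in the table) from 761 ± 32.0 to 326 ± 29.2 in *shBMAL1* (s.d., n = 3). *ARNT*, the partner of AHR, was also called lower in *shBMAL1*, at −0.23 on the log2 scale (adjusted p = 0.0187), and *BMAL1* was called lower in *shARNT*, at −0.26 (adjusted p = 0.0294). Neither call held in every fit that left out a library, which also lowers the number of samples. The first was lost without *shControl* replicate 2 or *shBMAL1* replicate 2 (adjusted p up to 0.162). The second was lost without *shControl* replicate 2 or *shARNT* replicate 3 (adjusted p up to 0.22). All 7 renal carcinoma markers examined (*PAX8*, *PAX2*, *KRT8*, *KRT18*, *VIM*, *CA9*, *EPAS1*) had reads, and several moved with the knockdowns, 3 lower and 1 higher in *shARNT* and 3 lower and 2 higher in *shBMAL1*. Among all tested genes, 19.0% were called lower and 16.5% higher in *shARNT*, and 19.4% and 17.4% in *shBMAL1*. *CA9*, a HIF target, averaged 128, 17.7 and 265 counts in *shControl*, *shARNT* and *shBMAL1*, and *PAX8* (−0.49) and *KRT18* (−0.40) fell in *shBMAL1* on the log2 scale (adjusted p = 1.71e-11 and 8.54e-06). *PAX2* rose in *shBMAL1* (0.43, adjusted p = 0.000193), and *KRT8* rose in *shARNT* (0.31, adjusted p = 7.63e-10). What part these shifts have in the other results was not tested. Of 8 markers of other cell types, *CD3E* and *CDH5* were at 0 in every library, *PTPRC*, *VWF* and *ALB* averaged under 3 counts and *PECAM1* under 8 in each group. *PDGFRB* averaged 14.8 to 24.2, and *CD68*, a lysosomal protein gene, averaged 5991 to 7395 counts. *CD68* was called lower in *shBMAL1* (−0.31 on the log2 scale, adjusted p = 0.00152) and was not called in *shARNT* (−0.08, adjusted p = 0.354). Reads of 15 mitochondrial genes made up 5.46 to 7.14% of a library in *shControl*, 7.59 to 8.74% in *shARNT* and 8.71 to 9.66% in *shBMAL1*. With these genes left out, an alternative added after the data were seen, the log2 fold changes of the 5 genes stayed the same to 2 decimals, and no call changed.

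In *shARNT* cells, *AHR* and *CYP1B1* mRNA were higher than in *shControl* and *TIPARP* mRNA was lower. In *shBMAL1* cells, *AHR* mRNA was 2.02-fold higher, *TIPARP* was lower by more than in *shARNT*, *CYP1A1* dropped to a few reads, and *CYP1B1* lay at the control level. *AHRR* was called in neither. A gene was called at an adjusted p under 0.1 in DESeq2 over all genes tested. Between *shARNT* and *shControl*, 2 of the 5 genes were called higher and 1 lower, beside 16.5% of all tested genes called higher, 19.0% called lower and 35.4% called in either direction. Between *shBMAL1* and *shControl*, 1 was called higher and 2 lower, beside 17.4%, 19.4% and 36.8% of all tested genes. In the direct comparison of *shBMAL1* with *shARNT*, 1 was called higher and 3 lower, beside 17.3%, 18.0% and 35.3%. The same *shControl* libraries served both knockdown comparisons. In RNA from a whole culture, less RNA per cell and fewer cells with the transcript cannot be told apart.

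**Figure D1:**
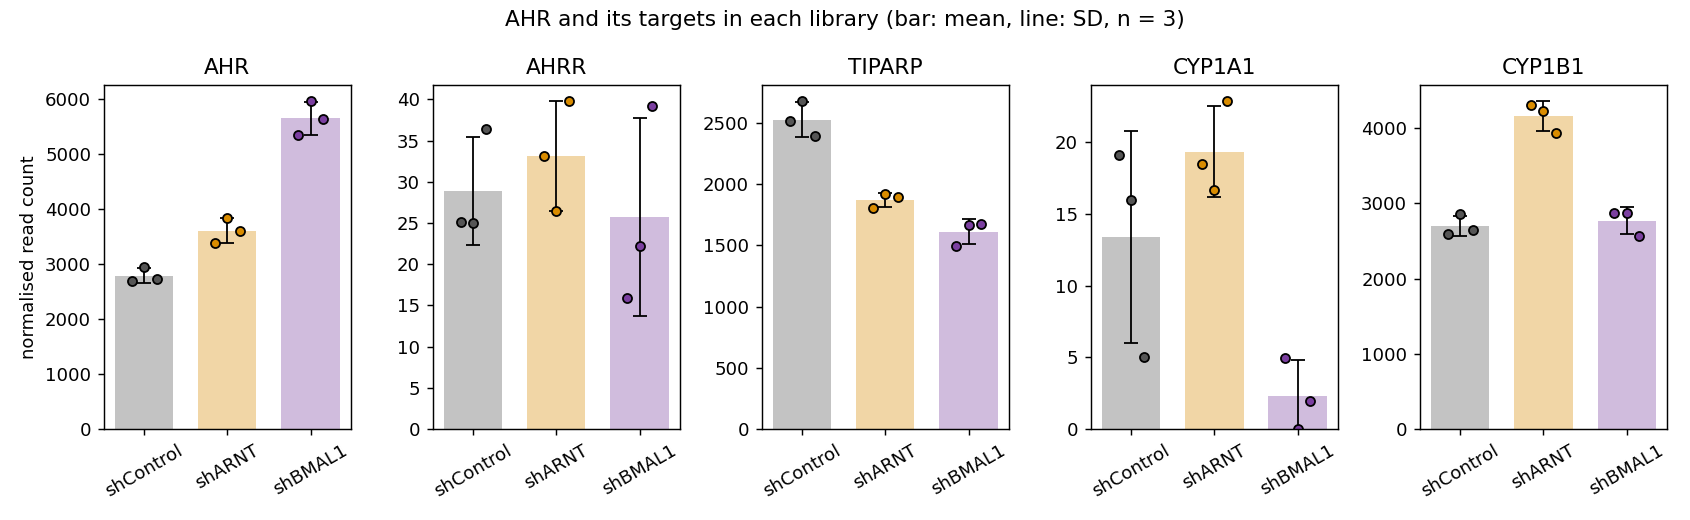
Normalised read counts of the 5 genes (vertical axis, a separate linear scale from 0 for each gene) in the libraries of each group, with bars at the group mean, lines for 1 s.d. cut at 0, and 1 point for each of the 3 libraries. *AHR* rises from *shControl* to *shBMAL1* with no overlap between groups, *TIPARP* falls, *CYP1B1* is high in *shARNT*, *CYP1A1* is at 0 to 4.96 in *shBMAL1*, and the *AHRR* groups overlap.

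The receptor gene rose in both knockdowns. *AHR* had 2689, 2939 and 2737 normalised read counts in the *shControl* libraries (replicates 1, 2 and 3), 3393, 3835 and 3597 in *shARNT*, and 5355, 5961 and 5637 in *shBMAL1*. Every *shARNT* library lay above every *shControl* library, and every *shBMAL1* library lay above both. The group means were 2788 ± 133, 3608 ± 221 and 5651 ± 303 (s.d., n = 3). *AHR* rose 1.30-fold in *shARNT*, which is 0.38 on the log2 scale (SE 0.065, 95% interval 0.25 to 0.50, adjusted p = 1.26e-07). It rose 2.02-fold in *shBMAL1*, or 1.02 on the log2 scale (SE 0.071, 95% interval 0.88 to 1.16, adjusted p = 2.39e-44). The direct comparison gave 0.65 (SE 0.072, adjusted p = 2.15e-17), so the rise was larger in *shBMAL1*. Of all genes tested, 10.8% rose as far or further in *shARNT* and 8.63% in *shBMAL1*. The *AHR* window at its start site holds the E-box printed above and a GCGTG at 38 bases after the start. Of all RefSeq windows, 7.26% held CACGTG and 36.5% held GCGTG. Binding was not measured, and a part of these motifs in the rise was not tested.

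*TIPARP*, the gene of the ADP-ribosyltransferase that acts on AHR, moved the other way. Its counts were 2516, 2678 and 2392 in *shControl*, 1805, 1917 and 1894 in *shARNT*, and 1492, 1670 and 1674 in *shBMAL1*. The 3 groups did not overlap. The means were 2528 ± 144, 1872 ± 59.4 and 1612 ± 104 (s.d., n = 3). *TIPARP* fell to 0.742 of control in *shARNT* (log2 fold change −0.43, SE 0.067, adjusted p = 2.36e-09) and to 0.637 in *shBMAL1* (−0.65, SE 0.081, adjusted p = 2.09e-14). The step from *shARNT* to *shBMAL1* was smaller, at −0.22 (SE 0.080, 95% interval −0.37 to −0.06, adjusted p = 0.0255). This last call was lost when *shARNT* replicate 2 was left out (−0.20, adjusted p = 0.118) or *shBMAL1* replicate 1 (−0.16, adjusted p = 0.117). Leaving out a library also lowers the number of samples.

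*CYP1B1*, a P450 gene that renal carcinoma cells expressed at a high level here, separated the knockdowns. It had 2599, 2856 and 2642 counts in *shControl*, 4311, 4232 and 3934 in *shARNT*, and 2876, 2875 and 2563 in *shBMAL1*. All *shARNT* libraries lay above all others, while the *shControl* and *shBMAL1* libraries overlapped. *CYP1B1* rose 1.54-fold in *shARNT* (log2 fold change 0.63, SE 0.062, adjusted p = 6.41e-22). Its change in *shBMAL1* was 0.04 (SE 0.077, 95% interval −0.11 to 0.19, adjusted p = 0.786). The direct comparison gave −0.59 (SE 0.074, 95% interval −0.73 to −0.44, adjusted p = 6.03e-14). Of all genes tested, 4.26% rose as far or further in *shARNT*.

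*CYP1A1*, the P450 gene most often used as a readout of AHR activity, was close to the detection limit. The raw reads were 19, 16 and 5 in *shControl*, 19, 17 and 23 in *shARNT*, and 5, 0 and 2 in *shBMAL1*. A count of 0 allows up to 3 reads in that library. After scaling, the highest *shBMAL1* library (4.96) lay just below the lowest *shControl* library (5.06), and their raw counts were equal. All *shARNT* libraries lay above all *shBMAL1* libraries and overlapped *shControl*. *CYP1A1* was called lower in *shBMAL1* than in *shControl*, with a log2 fold change of −2.54 (SE 0.96, 95% interval −4.41 to −0.66, adjusted p = 0.0281). Summed over the group, 7 reads in *shBMAL1* stood against 40 in *shControl*, a ratio per read sequenced of 0.177 (95% exact interval 0.0669 to 0.400, counting error only). Leaving out *shControl* replicate 1 (−2.19, adjusted p = 0.185), *shControl* replicate 2 (−2.39, adjusted p = 0.121) or *shBMAL1* replicate 2 (−1.95, adjusted p = 0.135) removed this call.

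The gap between the knockdowns was firmer for *CYP1A1*. The direct comparison gave −3.07 (SE 0.82, 95% interval −4.68 to −1.45, adjusted p = 0.00119), and the call held whichever single library was left out, with log2 fold changes of −4.29 to −2.49. The summed reads were 7 against 59, a ratio of 0.121 (95% exact interval 0.0465 to 0.265). Only 0.165% of all tested genes, 30 of 18181, were as far or further below *shARNT* in the fitted log2 fold change, which is wide for genes with so few reads. Between *shARNT* and *shControl* the change was 0.53 (95% interval −0.59 to 1.65, adjusted p = 0.541) and was not called.

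*AHRR*, the repressor gene, was also low. Its counts were 25.2, 25.0 and 36.4 in *shControl*, 33.1, 26.5 and 39.8 in *shARNT*, and 15.9, 22.2 and 39.2 in *shBMAL1*. The groups overlapped throughout. The log2 fold changes were 0.20 in *shARNT* (95% interval −0.57 to 0.98, adjusted p = 0.765) and −0.16 in *shBMAL1* (95% interval −1.04 to 0.72, adjusted p = 0.839). At 78 to 101 reads per group, changes within these intervals were not detectable.

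**Figure D2:**
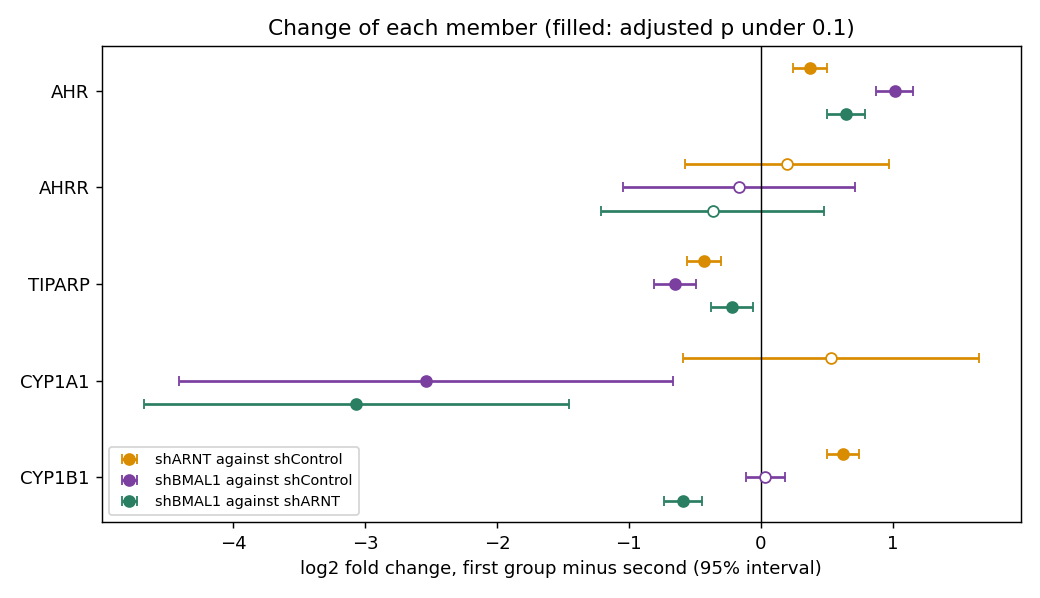
Log2 fold changes (horizontal axis) of each gene in the 3 comparisons, with 95% intervals from DESeq2, filled where the adjusted p was under 0.1. *AHR* lies above 0 and *TIPARP* below 0 in every comparison, *CYP1B1* is at 0.63 in *shARNT* and 0.04 in *shBMAL1*, and the intervals of *CYP1A1* and *AHRR* are several times wider than those of the other genes.

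Scaled to the length of the canonical transcript, the order of the genes differed between groups. In *shControl*, *TIPARP* was highest at 655 ± 37.2 normalised counts per kb, followed by *CYP1B1* at 517 ± 26.4 and *AHR* at 447 ± 21.3 (s.d., n = 3). In *shARNT* the order was *CYP1B1* (797 ± 38.1), *AHR* (578 ± 35.4) and *TIPARP* (485 ± 15.4). In *shBMAL1* it was *AHR* (905 ± 48.6), *CYP1B1* (531 ± 34.7) and *TIPARP* (418 ± 26.9). Libraries of neighbouring genes in these orders did not overlap. *AHRR* and *CYP1A1* stayed under 10 counts per kb in all libraries and overlapped each other in *shControl* and *shARNT*, while in *shBMAL1* *CYP1A1* (0 to 1.91) lay below *AHRR* (2.81 to 6.92). Within a library, *CYP1B1* stood to *AHR* at 1.155 to 1.163 in *shControl*, at 1.31 to 1.52 in *shARNT* and at 0.544 to 0.643 in *shBMAL1*. *TIPARP* stood to *AHR* at 1.41 to 1.51, 0.808 to 0.860 and 0.451 to 0.480. The transcript isoforms in use were not measured, and another length would shift these levels.

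**Figure D3:**
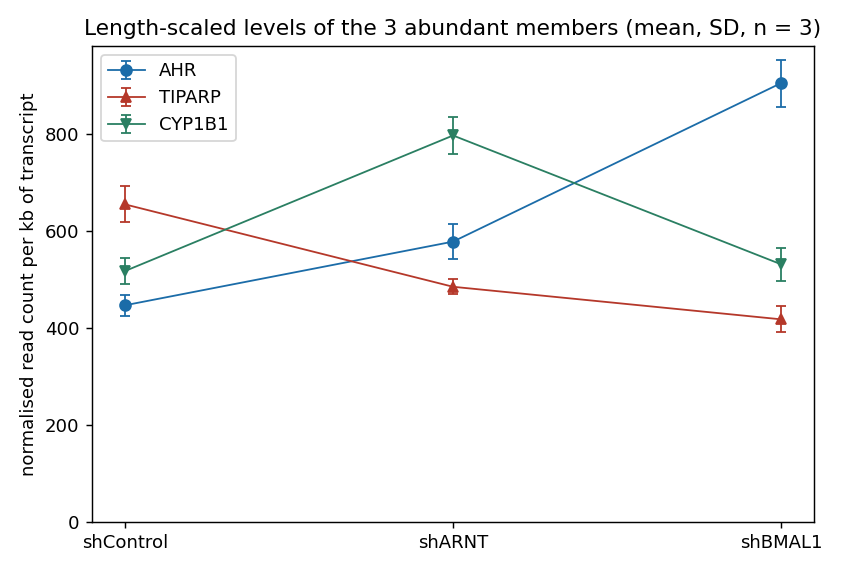
Normalised read counts per kb of canonical transcript (vertical axis, from 0) for *AHR*, *TIPARP* and *CYP1B1*, as group means with 1 s.d. (n = 3 libraries), with lines that only join values of the same gene. The highest of these genes is *TIPARP* in *shControl*, *CYP1B1* in *shARNT* and *AHR* in *shBMAL1*.

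Genes that overlap or neighbour these loci were examined because how the counting used strand was not given in the sources used here. *CYP1B1-AS1*, a long noncoding RNA on the opposite strand of *CYP1B1*, had 48.3, 81.0 and 46.5 counts in *shControl*, 129, 118 and 121 in *shARNT*, and 170, 167 and 144 in *shBMAL1*. It rose in *shARNT* (log2 fold change 1.07, adjusted p = 0.000235) and in *shBMAL1* (1.45, adjusted p = 4.01e-08), so it was high in *shBMAL1* where *CYP1B1* was at the control level. *TIPARP-AS1*, which did not overlap the canonical transcript of *TIPARP*, was called in *shBMAL1* alone, at −0.56 (adjusted p = 0.0493), and lost that call in 4 of the 6 fits that left out a library, namely *shControl* replicates 1 and 3 and *shBMAL1* replicates 2 and 3, where the adjusted p reached 0.238 with −0.42. *AHRR* shares its exons with the readthrough transcript *PDCD6-AHRR*, and *PDCD6* was called higher in *shARNT* (0.27, adjusted p = 1.59e-05) and not in *shBMAL1* (0.11, adjusted p = 0.425). Of the neighbours of *AHRR*, *EXOC3* was called in neither knockdown and *EXOC3-AS1* was called higher in *shBMAL1* at 0.67 (adjusted p = 0.0281), a call lost without *shControl* replicate 3 or *shBMAL1* replicate 1 or 2 (adjusted p up to 0.157, at 0.59 without *shBMAL1* replicate 2). *EXOC3-AS1* was also called in *shARNT*, at 0.55 (adjusted p = 0.088), and that call was lost without *shControl* replicate 2 or 3 or any *shARNT* library (adjusted p up to 0.293, at 0.43 without *shControl* replicate 3). *AHR* overlaps a noncoding RNA on the opposite strand (ENSG00000237773) and a coding model on its own strand (ENSG00000283321), and reads of these cannot be separated from *AHR* here. The canonical transcripts of *CYP1A1* and *TIPARP* had no overlapping gene.

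The proteins that hold, pair with or degrade AHR formed a list of 10 genes. In *shARNT* 4 were called lower and 0 higher, and in *shBMAL1* 6 lower and 0 higher, by DESeq2. Over all tested genes, 19.0% were lower and 16.5% higher in *shARNT*, and 19.4% lower and 17.4% higher in *shBMAL1*. At an unadjusted p under 0.05 and by edgeR, 0 were higher as well. The median log2 fold changes were −0.10 and −0.22, beside 0.003 and 0.015 over all genes tested. The counts include *ARNT* itself, the target of one shRNA. In *shARNT* they also include *SRC*, at −0.16 (adjusted p = 0.0674), a call lost without *shControl* replicate 1 or 3 or *shARNT* replicate 2 or 3. When a library was left out, the lower count was 3 to 4 in *shARNT* and 5 to 7 in *shBMAL1*. *ARNT2*, a paralog of ARNT that can also pair with AHR, fell by 0.59 in *shARNT* and by 0.38 in *shBMAL1* on the log2 scale (adjusted p = 1.31e-08 and 0.000951).

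Chaperone and ubiquitin ligase genes were among those that fell in *shBMAL1*. *HSP90AB1*, one of the HSP90 genes, fell from 55340 ± 1092 counts to 43180 ± 632 in *shBMAL1* (log2 fold change −0.36, adjusted p = 4.5e-10) and also fell in *shARNT* (−0.19, adjusted p = 0.000204). *HSP90AA1* fell in *shBMAL1* (−0.22, adjusted p = 0.00369), with −0.05 in *shARNT* (adjusted p = 0.482). *STUB1*, which encodes the ligase CHIP, fell in *shBMAL1* by 0.37 (adjusted p = 8.92e-05) and lay lower there than in *shARNT* (−0.26, adjusted p = 0.00438). *DDB1*, an adaptor of CUL4 ligases, fell in *shBMAL1* (−0.30, adjusted p = 4.08e-06) and lay lower there than in *shARNT* (−0.33, adjusted p = 1.46e-07). *PTGES3* (p23) and *TBL3* were called in neither knockdown. In the direct comparison 5 of the 10 were called lower and 1 higher, beside 18.0% and 17.3% of all tested genes, and without *shARNT* replicate 2 the lower calls numbered 3.

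Other genes known to respond to AHR in various cells did not move one way. Of 22 listed, 18 were tested in *shARNT*, with 5 lower, 5 higher and 8 not called (median 0.04). In *shBMAL1* 19 were tested, with 6 lower, 4 higher and 9 not called (median −0.05). The shares of all tested genes were 19.0% lower and 16.5% higher in *shARNT*, and 19.4% and 17.4% in *shBMAL1*, with medians of 0.003 and 0.015. *CYP1A2*, the liver relative of *CYP1A1*, had no read in any library. Many of these genes also respond to other factors, HIF among them.

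In the direct comparison of *shBMAL1* with *shARNT*, 6 of 19 tested genes of the list were called lower and 8 higher, beside 18.0% and 17.3% of all tested genes. *NQO1*, *IL1B* and *EREG* were called higher in *shARNT* and lower in *shBMAL1* than in *shARNT*, as *CYP1B1* was. *NQO1*, the quinone reductase gene that AHR and NRF2 both drive, had 3368, 3824 and 3449 counts in *shControl*, 4464, 4888 and 4860 in *shARNT*, and 3528, 3445 and 3226 in *shBMAL1*. It rose in *shARNT* (log2 fold change 0.42, adjusted p = 1.4e-09), gave −0.06 in *shBMAL1* (adjusted p = 0.588), and the direct comparison put *shBMAL1* below *shARNT* (−0.48, adjusted p = 1.33e-10). *IL1B*, an inflammatory cytokine gene, had 7.04, 1.00 and 8.09 counts in *shControl*, 64.3, 69.7 and 47.7 in *shARNT*, and 1, 1 and 2 raw reads in *shBMAL1*. It rose by 3.50 on the log2 scale in *shARNT* (SE 0.52, adjusted p = 2.56e-10). In *shBMAL1* it gave −2.02 against *shControl* (95% interval −4.58 to 0.53, adjusted p = 0.255), and the direct comparison gave −5.52 (SE 0.81, adjusted p = 1.73e-10). *EREG*, the gene of the growth factor epiregulin, gave 0.22 in *shARNT* (adjusted p = 0.0102), a call lost when *shControl* replicate 3 (0.16, adjusted p = 0.112) or *shARNT* replicate 2 was left out. It was called lower than control in *shBMAL1* (−0.68, adjusted p = 5.81e-16), and *shBMAL1* lay below *shARNT* at −0.91 (adjusted p = 1.51e-36).

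*NEDD9*, a focal adhesion scaffold gene, and *PTGS2*, the inducible cyclooxygenase gene, ran the other way. They fell in *shARNT* by 0.60 and 0.52 on the log2 scale (adjusted p = 2.21e-23 and 0.00267) and were higher in the direct comparison, at 0.85 and 0.70 (adjusted p = 2.11e-33 and 1.4e-05). In *shBMAL1* against *shControl*, *NEDD9* was called higher at 0.24 (adjusted p = 0.00235), while *PTGS2* was not called at 0.18 (adjusted p = 0.312).

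Further genes of the list followed several patterns. *VAV3*, a guanine nucleotide exchange factor gene, had 1145, 1056 and 973 counts in *shControl*, 1958, 1948 and 1828 in *shARNT*, and 3497, 3964 and 3601 in *shBMAL1*, in the same order of groups as *AHR*. Its log2 fold changes were 0.86 (adjusted p = 3.19e-26) and 1.80 (adjusted p = 2.15e-98). *IL6* fell in both knockdowns, by 1.01 and 1.63 on the log2 scale (adjusted p = 1.95e-08 and 2.55e-17). *ABCG2*, a drug efflux transporter gene, had 143, 144 and 132 counts in *shControl*, 138, 169 and 125 in *shARNT*, and 55.6, 46.4 and 42.1 in *shBMAL1*. It fell in *shBMAL1* (−1.54, adjusted p = 1.54e-09) and lay lower there than in *shARNT* (−1.59, adjusted p = 1.48e-09), like *CYP1A1* but with more reads. *STC2*, a secreted glycoprotein gene, and *SLC7A5*, a large neutral amino acid transporter gene that also carries tryptophan and kynurenine, fell in both knockdowns and by more in *shARNT*. *STC2* gave −1.43 and −0.76 (adjusted p = 5.88e-66 and 1.12e-12) and *SLC7A5* gave −0.77 and −0.44 (adjusted p = 3.38e-39 and 1.22e-06), and the direct comparison gave 0.67 and 0.33 (adjusted p = 9.73e-08 and 0.000203).

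Enzymes of tryptophan breakdown make and remove natural AHR ligands such as kynurenine. Of 10 listed, 9 were tested in *shBMAL1*, with 3 lower and 2 higher, and 8 in *shARNT*, with 1 lower and 2 higher. Of all tested genes 19.4% were lower and 17.4% higher in *shBMAL1*, and 19.0% and 16.5% in *shARNT*. These counts are small and moved when a library was left out. In *shARNT* the lower count was 0 without *shControl* replicate 1 or 2 or *shARNT* replicate 3, and the higher count was 1 whichever of the 6 libraries was left out. In *shBMAL1* the lower count was 2 whichever library was left out, and the higher count was 4 without *shBMAL1* replicate 1. The lower count there included *AADAT*, at −0.38 (adjusted p = 0.093), a call lost whichever library was left out. *KYNU*, kynureninase, which cleaves kynurenine, rose from 307 ± 4.81 counts to 626 ± 56.1 in *shARNT* (log2 fold change 1.03, adjusted p = 9.17e-18) and to 412 ± 37.3 in *shBMAL1* (0.42, adjusted p = 0.00484). *KMO*, which hydroxylates kynurenine, rose from 1060 ± 59.6 to 2379 ± 214 in *shBMAL1* (1.16, adjusted p = 1.77e-37), lay higher there than in *shARNT* (1.34, adjusted p = 5.19e-41) and was not called in *shARNT* (−0.18, adjusted p = 0.152). *IL4I1*, an amino acid oxidase whose products activate AHR, fell in *shBMAL1* (−0.40, adjusted p = 0.000302), as did *KYAT1*, a kynurenine aminotransferase gene (−0.53, adjusted p = 7.59e-09). *TDO2*, tryptophan dioxygenase, was called higher in *shARNT* (0.62, adjusted p = 0.088) and lost that call whichever library was left out (adjusted p up to 0.27, at 0.55 without *shARNT* replicate 1). *IDO1*, the inducible enzyme that starts the pathway, averaged under 4 counts in each group, and *IDO2* had none.

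**Figure D4:**
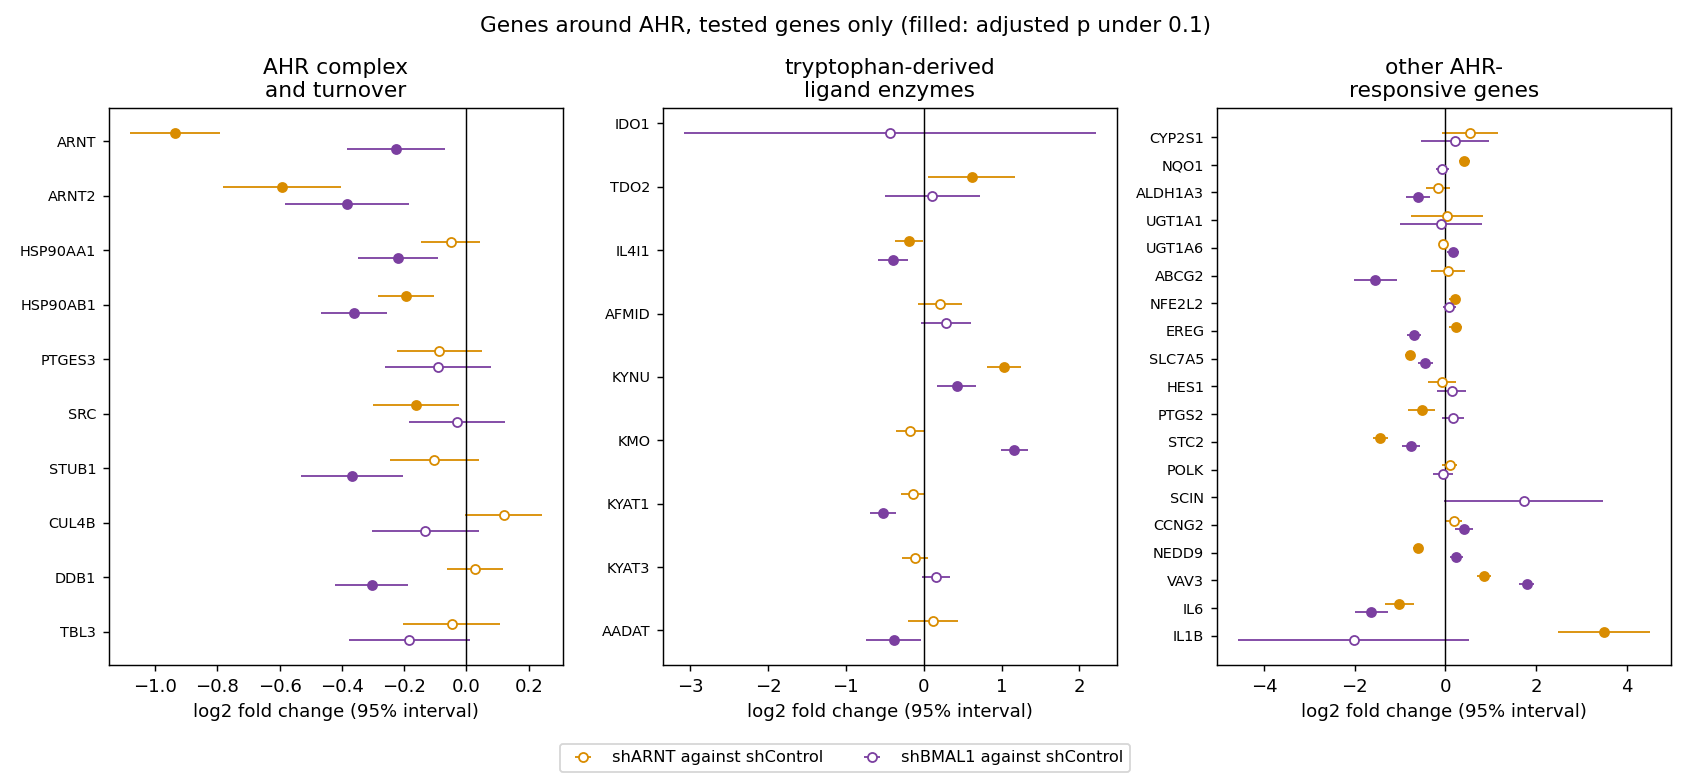
Log2 fold changes (horizontal axes, different scales) with 95% intervals for tested genes of the AHR complex, the tryptophan enzymes and other AHR-responsive genes, in *shARNT* (orange) and *shBMAL1* (purple) against *shControl*, filled where the adjusted p was under 0.1. No filled point of the complex lies above 0, whereas the filled points of the responsive genes lie on both sides, from −1.63 for *IL6* in *shBMAL1* to 3.50 for *IL1B* in *shARNT*.

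The relatives of *TIPARP* carry out mono-ADP-ribosylation or share its fold. Of 11 tested, 5 were called lower in *shARNT* and 8 in *shBMAL1*, with 0 higher in either by DESeq2, by edgeR or at an unadjusted p under 0.05, beside 19.0% and 19.4% of all tested genes called lower and 16.5% and 17.4% called higher. When a library was left out, the lower count was 4 to 6 in *shARNT* and 7 to 8 in *shBMAL1*. Both counts include *PARP6*, at −0.14 and −0.17 (adjusted p = 0.0779 and 0.0607). Its *shARNT* call was lost whichever library was left out, and its *shBMAL1* call held only without *shBMAL1* replicate 3. The median log2 fold changes over the list were −0.17 and −0.34, beside 0.003 and 0.015 over all genes tested. *PARP12* fell from 3789 ± 68.4 counts to 2335 ± 95.4 in *shARNT* (−0.69, adjusted p = 2.56e-30) and to 2216 ± 108 in *shBMAL1* (−0.78, adjusted p = 3.05e-27). *PARP9* gave −0.68 and −0.78 (adjusted p = 5.27e-19 and 1.19e-16), and *PARP14* gave −0.43 and −0.54 (adjusted p = 2.19e-15 and 2.3e-16). These 3 genes are known to be induced by interferon. The direct comparison called 2 of the 11 lower, beside 18.0% of all tested genes, namely *PARP4* (−0.30, adjusted p = 5.78e-06) and *ZC3HAV1* (−0.32, adjusted p = 0.000507). *PARP9*, *PARP12* and *PARP14* were not called there, with −0.09, −0.08 and −0.10 (adjusted p = 0.555, 0.494 and 0.224).

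P450 enzymes such as CYP1A1 and CYP1B1 draw their electrons from the reductase POR. *POR* had 6357, 6101 and 6685 counts in *shControl*, 7375, 7150 and 7085 in *shARNT*, and 4817, 4474 and 4957 in *shBMAL1*, with no overlap between groups. It rose in *shARNT* (log2 fold change 0.18, adjusted p = 0.00431) and fell in *shBMAL1* (−0.43, adjusted p = 6.4e-09). *CYB5A*, the gene of cytochrome b5, rose in *shBMAL1* from 104 ± 4.42 to 263 ± 41.6 counts (1.33, adjusted p = 8.4e-12). *CYP2E1*, which oxidises ethanol and small solvents, rose in *shBMAL1* from 78.1 ± 8.52 to 190 ± 35.8 (1.28, adjusted p = 3.65e-08). It was also called higher in *shARNT* (0.72, adjusted p = 0.00975), a call lost without *shARNT* replicate 1 (0.58, adjusted p = 0.124). *CYP3A5* fell in *shARNT* from 245 ± 22.2 to 120 ± 23.6 (−1.02, adjusted p = 2.59e-07) and gave 0.21 in *shBMAL1* (adjusted p = 0.299). Of the 16 genes of this list 7 were tested in *shARNT*, with 2 lower and 2 higher, and 13 in *shBMAL1*, with 2 lower and 2 higher, beside 19.0% and 16.5% of all tested genes in *shARNT* and 19.4% and 17.4% in *shBMAL1*. In *shARNT* the lower count was 1 without *shControl* replicate 1 or 2 or *shARNT* replicate 2, and the higher count was 1 without *shARNT* replicate 1. In *shBMAL1* the lower count was 1 without *shControl* replicate 1 or 3 or *shBMAL1* replicate 2 or 3.

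ARNT and BMAL1 serve many bHLH-PAS partners besides AHR. Of 10 such partner genes 6 were tested, with 1 lower and 3 higher in *shARNT* and 1 lower and 2 higher in *shBMAL1*, beside 19.0% and 16.5% of all tested genes in *shARNT* and 19.4% and 17.4% in *shBMAL1*. The higher count in *shARNT* was at most 2 whichever library was left out, and 1 without *shControl* replicate 2 or 3 or *shARNT* replicate 3. The higher count in *shBMAL1* was 4 without *shControl* replicate 1. Among them *SIM1* rose in *shBMAL1* from 184 ± 10.2 to 284 ± 36.1 counts (log2 fold change 0.63, adjusted p = 0.000493). *SIM1* was also called higher in *shARNT*, at 0.33 (adjusted p = 0.0984), a call lost whichever library was left out. *HIF1A* rose by 0.42 and 0.61 (adjusted p = 2e-11 and 2.36e-18), and *CLOCK* fell by 0.43 in *shBMAL1* (adjusted p = 2.31e-06).

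The genes with the most similar pattern to each of the 5 were found by Pearson's r of log2(normalised count + 1) over the 9 libraries, among 12918 genes with a mean of at least 50. These values are descriptions, since the 9 libraries share the group differences and the scaling. For *AHR* they were *DPP4* (r = 0.998), a cell-surface peptidase gene, *ACSM3* (0.993) and *WDFY3-AS2* (0.992). *DPP4* averaged 5390 ± 182, 6729 ± 347 and 10650 ± 485 counts in *shControl*, *shARNT* and *shBMAL1*. For *TIPARP* they were *CCBE1* (0.990), *FTSJ1* (0.987) and *PALLD* (0.985). For *CYP1B1* they were *MAP3K5* (0.981), *ATP6V0A1* (0.979) and *SLC43A2* (0.979). *ATP6V0A1*, a proton pump subunit gene, averaged 1886 ± 50.6, 2964 ± 110 and 1978 ± 117 counts in *shControl*, *shARNT* and *shBMAL1*. For the low-count genes they were *DHX8* (0.987), *COG7* (0.973) and *EIF5A* (0.968) for *CYP1A1*, and *ZNF630* (0.891), *MRPL41* (0.880) and *PPP2R2D* (0.878) for *AHRR*. The choice depended on the measure. By Spearman's rho in place of r, 4 genes ranked ahead of *DPP4* for *AHR* (rho = 0.983), 415 ahead of *MAP3K5* for *CYP1B1* (rho = 0.767) and 433 ahead of *EIF5A* for *CYP1A1* (rho = 0.817), while 0 ranked ahead of *ZNF630* for *AHRR*.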

How the data were processed

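The estimated counts were deposited by the authors as total reads per gene for 9 libraries (3 groups of 3), from stranded mRNA libraries read as paired ends of 100 bases. The study's methods name SeqMan NGen, ArrayStar and GRCh37, whereas the submitters' processing notes name STAR, DESeq2 and hg38. Which of them made the table was not settled here. The annotation and strand setting of the counting were not given in the sources used here. In the 38074 rows a value of 0.009 stood for 0 and was set to 0, and the 6.14% of other values that were fractional were rounded. Rows of the same name were added together, which left 38021 genes. The 5 genes had 1 row each and no fractional value. In 28 rows the symbol had become a date, and these stayed in the fits unnamed.

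Each comparison was fitted in DESeq2 1.42.0 (R 4.3.3) on its 6 libraries, with median-of-ratios size factors, a two-sided Wald test, Benjamini-Hochberg adjustment over all genes tested and independent filtering at 0.1, the tool and threshold of the study. All adjusted p values in the text are from these fits unless edgeR (4.0.16) is named. Normalised read counts were counts divided by size factors over all 9 libraries. Exact intervals for read ratios cover counting error only. Levels per kb used canonical transcripts of GENCODE on GRCh37, and start-site windows came from RefSeq on GRCh38.p14. Pairs of libraries of a group differed by more than sampling noise (chi-square per degree of freedom 7.18 to 16.4). The replicates are labelled biological, with nothing further on separate cultures. The code was tested on simulated data.

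Alternatives were edgeR with TMM scaling, TMM size factors, a minimum of 10 counts in 3 or more libraries, no independent filtering, an adjusted p under 0.05, 1 fit of all libraries, the replicate number as a block, leaving out each library in turn and, added after the data were seen, leaving out mitochondrial genes. For the similarity of patterns the alternative was Spearman's rho. The 5 genes and all lists were chosen with earlier results of these data known. One gene of the planned list of AHR complex proteins is not reported here. From each list, every called gene could be named, and at least the 3 with the largest changes among those with a mean of at least 50 counts were named. Genes that overlap or neighbour the 5, and for each of the 5 the 3 genes of most similar pattern, were named too.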

Additional observations from a re-analysis of the deposited data

Results flagged for a closer look

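The effects of the knockdowns on 4 of the 5 genes differed by the direct comparison of *shBMAL1* with *shARNT*, in which the shared control cancels, beside 35.3% of all tested genes called there. The log2 difference was 0.65 for *AHR* (adjusted p = 2.15e-17), −0.59 for *CYP1B1* (adjusted p = 6.03e-14), −3.07 for *CYP1A1* (adjusted p = 0.00119) and −0.22 for *TIPARP* (adjusted p = 0.0255), all from DESeq2. The call of *TIPARP* was lost without *shARNT* replicate 2 (adjusted p = 0.118) or *shBMAL1* replicate 1 (adjusted p = 0.117). *AHR* and *TIPARP* had changed in the same direction in both knockdowns, and *CYP1B1* was called in *shARNT* but not in *shBMAL1*. With 3 libraries per group, no test for a single library that stands apart was made.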

How the results depend on the processing

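Over the alternatives, 244 values (log2 fold changes of the 5 genes and numbers of genes called) kept their direction and call, or stayed within 1.5 times for the numbers, 5 lost a call and 2 changed sign. The sign changes were those of *AHRR* in *shBMAL1*, which was not called in any fit, at 0.035 (adjusted p = 0.977) without *shControl* replicate 3 and 0.088 (adjusted p = 0.924) without *shBMAL1* replicate 1. The lost calls all came from leaving out a library, which lowers the number of samples. The log2 fold change of *CYP1A1* in *shBMAL1* ranged from −3.76 to −1.95, and that of *TIPARP* in the direct comparison from −0.25 to −0.16. That of *AHRR* in *shBMAL1* ranged from −0.60 to 0.088. Spearman's rho in place of r changed which genes were most similar, as the ranks above show. The filter of 10 counts removed *CYP1A1* from the comparison of *shBMAL1* with *shControl*, so no value was obtained there. Of the counts over gene lists, 463 stayed within 1.5 times and 41 moved by more, most of them counts of 1 to 4 genes.

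The replicate numbers did not pair the samples, since libraries of the same number did not deviate together (r from −0.154 to 0.105). With the number as a block, 4150 genes were called in *shARNT* in place of 5374, 5742 in *shBMAL1* in place of 7005, and 5388 in place of 6409 in the direct comparison. No call of the 5 genes changed under the block. Depth limits *CYP1A1* and *AHRR*, with at most 101 reads per group, and the counts do not separate overlapping genes.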
